A study of Mus musculus with 41 samples.

Results

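The p53 targets and DNA repair genes of the array were followed in the lung and liver of mice that had inhaled nanotitanium dioxide. The 10 genes were Cdkn1a, Mdm2, Ccng1, Gadd45a, Bax, Bbc3, Trp53inp1, Ogg1, Xrcc1 and Xpa. They were found by the gene name that the array's design gives each spot, which picked 14 of 41174 probes, for 10 of 27962 gene names. RNA of single mice was hybridised as Cy5 to 2-colour arrays beside a common Cy3 reference RNA, which was pooled from 11 mouse cell lines. Every value below is a log2 ratio of mouse RNA over reference RNA unless another scale is named, so that a difference of 1 is 2-fold and 0 is the level of the reference.

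The mice were female C57BL/6 (BomTac) animals that had been time-mated and had not conceived. The exposed mice inhaled 40 mg nanoTiO2 per m3 as the labels round it (a rutile particle with a surface coating) for 1 h per day on 11 consecutive days, and the control mice breathed filtered air. Tissue was taken 5 days after the last exposure from a random part of the left lung and from the liver. Lung RNA came from 7 exposed and 6 control mice and liver RNA from 7 exposed and 8 control mice, and 12 mice gave both tissues. In such bulk samples more cells of a type and more RNA per cell cannot be told apart.

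The transcription factor p53 is held at a low level in unstressed cells, because its target Mdm2 encodes the ubiquitin ligase that marks p53 for degradation. When DNA is damaged p53 accumulates and switches on genes that stop the cell cycle (Cdkn1a, Gadd45a, Ccng1) or promote apoptosis (Bax, Bbc3, Trp53inp1). The repair genes stand for separate routes: Ogg1 encodes the glycosylase that removes oxidised guanine, Xrcc1 the scaffold of base excision and single-strand break repair, and Xpa the damage verification factor of nucleotide excision repair. Inhaled particles are often examined for such damage because they can raise reactive oxygen species in the lung.

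Each probe reads 60 bases of a transcript. The sequences of 5 probes that lie in the coding part are shown, since the coding probes of Mdm2 and Ccng1 differed from the second probe of the same gene further on. That they are coding is taken from knowledge of the transcripts, since no annotation of this build was used here.
Mdm2 A_51_P201346: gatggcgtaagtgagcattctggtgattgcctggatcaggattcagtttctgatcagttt
Ccng1 A_51_P161612: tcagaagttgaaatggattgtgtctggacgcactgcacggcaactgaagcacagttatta
Bax A_51_P254541: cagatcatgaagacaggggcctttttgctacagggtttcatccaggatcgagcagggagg
Xrcc1 A_51_P343900: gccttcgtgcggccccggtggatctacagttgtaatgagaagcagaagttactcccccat
Xpa A_52_P83233: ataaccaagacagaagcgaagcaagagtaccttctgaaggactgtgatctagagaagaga
Each of these has at least 1 reading frame without a stop codon. By the positions in the lung file headers (mm7), the coding Ccng1 probe lies at chr11:40693768-40693827 and the second one, A_52_P612803, at chr11:40691782-40691841 on the same minus strand, which is further toward the 3′ end. The 2 Mdm2 probes are arranged the same way, at chr10:117204040-117204099 and chr10:117200593-117200652 on the minus strand. The 2 Ogg1 probes overlap (chr6:113495039-113495098 and chr6:113495019-113495078), so they are not independent measurements. Their single channels nonetheless gave opposite signs between lung and liver, as given further on.

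A promoter window of fixed length around the transcription start was listed in RefSeq (GRCm38.p6) for 9 of the 10 genes. An exact match to the decamer consensus of a p53 half-site was present in a window of 5 of them. Both strands were covered, as the consensus is its own reverse complement. These 9 genes have 12 windows, of which 5 held a match, and over all 32851 windows 8.36% did. The matches are shown with 10 bases on either side and with the matching bases in capitals. Each is a single half-site, and pairs of half-sites were not searched for.
Cdkn1a: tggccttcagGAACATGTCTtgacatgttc
Mdm2: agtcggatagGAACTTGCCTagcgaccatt
Ccng1: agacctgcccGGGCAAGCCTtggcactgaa
Gadd45a: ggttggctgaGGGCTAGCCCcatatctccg
Bax: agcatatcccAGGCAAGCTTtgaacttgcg
The Cdkn1a match at chr17:29090928-29090937 lay 51 bases before the start of 1 of 2 windows of that gene, and a second match lay in the same window. Those of Mdm2, Ccng1, Gadd45a and Bax lay 186, 185, 40 and 201 bases before their starts. The windows of Bbc3, Ogg1, Xrcc1 and Xpa held no match to the half-site consensus. No binding was measured here, so a match is a description of the sequence.

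All 14 probes were well above background on all 28 arrays, with no saturated spot, and between 55.1% and 70.5% of all spots on an array were well above background. Cdkn1a, Bax and the coding Mdm2 probe were each printed 10 times on an array, and their spots had a median SD of 0.06, 0.06 and 0.08 within an array. The other 11 probes were printed once, and 6 probes had no value on 1 to 6 arrays because the scanner software had marked the spot as an outlier. Trp53inp1 A_51_P175580 lost most, with no value on 6 of the 15 liver arrays. The mean over 5 hepatocyte markers was 5.19 to 6.51 in the livers and 0.34 to 2.08 in the lungs, and that over up to 7 lung epithelium markers 3.67 to 4.87 in the lungs and 0.19 to 0.72 in the livers, as labelled. A mean leaves out a marker without a value on that array, and Sftpd had no lung exposure difference for want of values. The means of the 2 tissues thus need not be over the same genes. Heart muscle markers were also well above the reference in the lung, with a mean over 5 genes of 1.56 to 3.95 per mouse. Exposed mice were hybridised at slide positions 1 and 2 and control mice at positions 3 and 4, so position and exposure cannot be told apart.

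**Figure D1:**
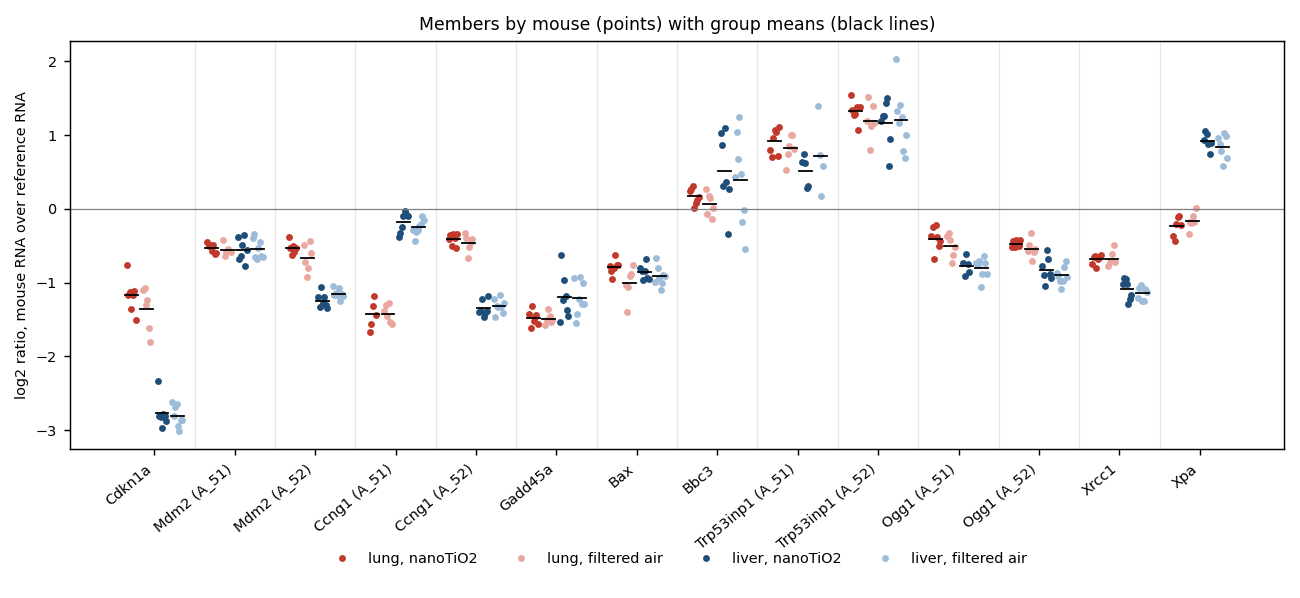
Log2 ratio of mouse RNA over reference RNA for the 14 probes of the 10 genes, with 1 point per mouse and black lines for the means of the 4 groups. Exposed and control points of a tissue overlap for every probe, whereas lung and liver are separated for Cdkn1a, both Ccng1 probes, Xpa, Xrcc1 and Mdm2 A_52_P469842, and Bbc3 and Trp53inp1 scatter widely in the liver.

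The first question was whether the genes changed in the exposed lung. At an adjusted p under 0.05 limma called 0 of the 14 probes, against 83 of 41149 probes on the array (0.202%). Of the 14 differences 11 were above 0, with a median of 0.08 beside 0.00 over all probes, and at an unadjusted p under 0.05 limma picked 1 member probe, beside 7.13% of all probes, and the exact permutation test the same probe. The 95% intervals of all 14 lay within a 1.5-fold change in either direction. The lowest lower end was 0.856-fold (Xpa) and the highest upper end 1.37-fold (Cdkn1a). Exposed and control mice overlapped for every probe, where 0.583% of all probes did not overlap. With the hybridization block as a term, the intervals of Cdkn1a (0.04 to 0.46), Bax (0.03 to 0.37) and Bbc3 (0.02 to 0.26) lay above 0. None of them was called in that fit (limma, adjusted p = 0.50, 0.50 and 0.52).

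Bax, which encodes a pore-forming protein of the mitochondrial outer membrane, showed the largest lung difference of the 10 genes. In exposed lungs it ranged from -0.95 to -0.63 with a median of -0.77, and in control lungs from -1.40 to -0.77 with a median of -0.97. Of the exposed lungs 3 exceeded the highest control lung, and the lowest value was that of control mouse 26. The difference was 0.22 ± 0.08 (SE), or 1.17-fold, which did not pass the correction (limma, adjusted p = 0.61; exact permutation p = 0.018, unadjusted). It was above 0 within each of the 3 hybridization blocks that held both groups, by 0.41, 0.04 and 0.11, and was 0.20 with the block as a term (limma, adjusted p = 0.50).

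Cdkn1a encodes the cyclin-dependent kinase inhibitor p21. Its exposed lungs ranged from -1.51 to -0.76 (median -1.17) and its control lungs from -1.81 to -1.07 (median -1.26). Among the exposed lungs only that of mouse 1 exceeded the highest control lung, and control mice 34 and 32 had the lowest values. The difference of 0.18 ± 0.13 (SE) did not pass the test (limma, adjusted p = 0.80; exact permutation p = 0.24). With the hybridization block as a term it was 0.25 ± 0.09 (limma, adjusted p = 0.50).

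The remaining targets moved less. Trp53inp1, a stress-induced p53 partner, differed by 0.13 and 0.09 at its 2 probes, and Bbc3, which encodes the BH3-only protein Puma, by 0.11. The Mdm2 probe A_52_P469842 differed by 0.14 and the coding Mdm2 probe by 0.03. Ccng1, encoding cyclin G1, differed by 0.05 and -0.01 at its 2 probes, and Gadd45a, a growth arrest gene, by 0.01. None of these passed the test, with adjusted p between 0.76 and 0.99 (limma).

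None of the repair genes was called either. Ogg1 was -0.52 to -0.42 in exposed and -0.71 to -0.33 in control lungs at A_52_P567905, a difference of 0.07 with a 95% interval from -0.04 to 0.18. Xrcc1 was -0.80 to -0.63 in exposed and -0.78 to -0.49 in control lungs, with a difference of -0.01 (interval -0.12 to 0.09). Xpa, with 6 mice in each group, was -0.44 to -0.10 in exposed and -0.34 to 0.01 in control lungs, with a difference of -0.08 (interval -0.22 to 0.07). The second Ogg1 probe, A_51_P489903, differed by 0.09 (interval -0.08 to 0.27). The intervals of these 4 probes reached from 0.856-fold to 1.20-fold.

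**Figure D2:**
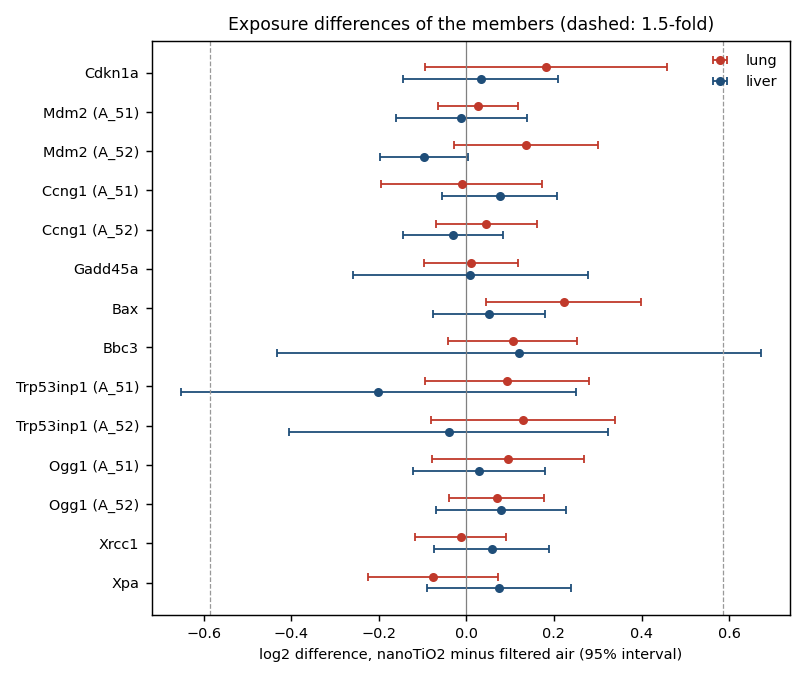
Difference between nanoTiO2 and filtered air on the log2 scale for each probe, with its 95% interval from limma, in lung (red) and liver (blue). Dashed lines mark a 1.5-fold change, which all 14 lung intervals and 12 of the 14 liver intervals stay within.

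In the liver 0 of the 14 probes and 0 of 41132 probes on the array (0%) were called by limma, where 0 member probes and 1038 probes in all (2.52%) had an unadjusted p under 0.05. No member probe was without overlap between exposed and control livers, beside 0.146% of all probes. The exact permutation test gave 1 member probe under 0.05, which was Mdm2 A_52_P469842. That probe ranged from -1.35 to -1.05 in exposed livers (median -1.28) and from -1.25 to -1.04 in control livers (median -1.16), and 4 exposed livers were under the lowest control liver. The difference was -0.10 ± 0.05 (SE; limma, adjusted p = 1.00; exact permutation p = 0.050), below 0 in each of the 4 hybridization blocks. The coding Mdm2 probe differed by -0.01.

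Among the other liver differences, Bbc3 (0.12) and Trp53inp1 A_51_P175580 (-0.20) were the furthest from 0, and they were also the least certain. The interval of Bbc3 ran from -0.43 to 0.67, and that of Trp53inp1 A_51_P175580, with 5 exposed and 4 control values, from -0.65 to 0.25. For the other 12 probes the interval stayed within a 1.5-fold change. Cdkn1a differed by 0.03, Gadd45a by 0.01, Bax by 0.05, Xrcc1 by 0.06 and Xpa by 0.08. The repair gene Ogg1 differed by 0.03 and 0.08 at its 2 probes.

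Whether the exposure difference itself differed between lung and liver was tested over all 28 arrays. None of the 14 probes was called, against 58 of 41125 probes (0.141%). At an unadjusted p under 0.05 limma picked 1 member probe, beside 4.29% of all probes. The probe with the lowest unadjusted p was again Mdm2 A_52_P469842, whose lung difference exceeded its liver difference by 0.23 ± 0.09 (SE; limma, adjusted p = 1.00). Bax followed with 0.17 ± 0.10 (limma, adjusted p = 1.00).

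The wider pathway was read from lists, some genes standing in more than 1, of 122 genes in all that encode p53 regulators, other p53 targets, relatives of the members and repair factors. In the lung 1 of the 122 was called, beside 0.202% of all probes, and it was higher; 11 had an unadjusted p under 0.05, where 7.13% of all probes did. The median difference was 0.01. The called gene was Gdf15, which encodes a stress-induced cytokine of the TGF-beta family and is a p53 target. It ranged from -1.48 to -1.21 in 7 exposed lungs and from -1.70 to -1.49 in the 5 control lungs with a value, so that the groups did not overlap. The difference was 0.31 ± 0.05 (SE), or 1.24-fold (limma, adjusted p = 0.029). The call was lost when any of 9 of the 13 lung arrays was left out, with limma's adjusted p up to 0.095, while the difference stayed between 0.28 and 0.34.

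Next in order were Bmf, which encodes a BH3-only relative of Bbc3, and the p53 target Phlda3, an inhibitor of Akt. Bmf was 1.43 to 1.67 in exposed and 0.91 to 1.43 in control lungs, a difference of 0.36 ± 0.07 (SE; limma, adjusted p = 0.063). Leaving out control mouse 27 brought Bmf to an adjusted p of 0.028 (limma). Phlda3 was -0.07 to 0.16 in exposed and -0.29 to 0.04 in control lungs, a difference of 0.19 ± 0.06 (SE; limma, adjusted p = 0.41). Within the blocks that held both groups, all 3 genes were higher in exposed lungs, Gdf15 by 0.24 to 0.47, Bmf by 0.24 to 0.45 and Phlda3 by 0.03 to 0.27.

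By list, the lung counts were 0 of 12 p53 regulators, 1 of 30 other targets, 0 of 16 relatives, 0 of 22 base excision repair genes, 0 of 25 nucleotide excision repair genes and 0 of 20 break and mismatch repair genes. The medians lay between -0.01 and 0.03. In the liver none of the 122 was called and 2 had an unadjusted p under 0.05, where 2.52% of all probes did. These were Ei24 (0.16) and Ckap2 (-0.20), with a median over the 122 of -0.02. The third lowest p was that of the kinase gene Chek2 (-0.15).

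Cell composition was read beside these values. In the exposed lung the macrophage markers Marco and Siglecf were called in opposite directions (0.57 and -0.70; limma, adjusted p = 0.0092 and 0.011), and the ciliated-cell factor Foxj1 was called higher (0.29; limma, adjusted p = 0.037). The other 5 lung epithelium markers tested lay between -0.20 (Sftpc) and -0.06 (Ager), and none was called. None of the 8 neutrophil, 7 lymphocyte, 5 heart muscle or 5 hepatocyte markers was called. All 5 heart muscle and all 5 hepatocyte markers were above 0, with medians of 0.41 and 0.51, where 50.9% of all probes were above 0. The neutrophil markers ran from -0.88 (S100a8) to 0.57 (Ltf), and all but Ltf were below 0. The lymphocyte markers lay on both sides of 0, from -0.12 (Cd8a) to 0.07 (Cd3g). The red cell markers Hbb-b1, Alas2 and Hba-a1 were below 0 (-0.36, -0.16 and -0.16) and none was called. The mean over the hepatocyte markers was 0.60 to 2.08 in exposed lungs (median 1.21) and 0.34 to 1.1 in control lungs (median 0.74). The mean over the 8 macrophage markers was 2.34 to 2.85 in exposed and 2.37 to 2.91 in control lungs. The 14 cell division genes had a mean of -3.06 to -2.70 in exposed and -3.18 to -2.73 in control lungs, and none was called. The part of cell composition in the member values was not tested.

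The second question was how the levels differed between lung and liver. In control mice 9 of the 14 probes were called, 6 higher in lung and 3 higher in liver. Of all probes on the array 57.8% were called, 29.3% higher and 28.5% lower in lung, dim probes included. All 14 member probes were well above background. With dim probes left out, 22759 of 29322 probes were called, a larger share than among the members. The count of the members was not tested against either share. At an unadjusted p under 0.05 limma picked 9 member probes and 60.9% of all probes. Groups did not overlap for 6 of the 14 probes, beside 41.3% of all probes. Lung and liver were hybridised on separate slides and read with different software versions, so tissue and batch cannot be told apart. The reference channel alone holds the same kind of RNA on all arrays. It differed between the lung and liver arrays at 42.4% of probes, with member differences from -0.45 to 0.57. Values of the mouse channel (Cy5) and the reference channel (Cy3) alone are therefore given for the member probes described below, but not for the list genes. With median centering in place of loess the count fell from 9 to 4, with the calls of Mdm2 A_52_P469842, Gadd45a, Xrcc1 and both Ogg1 probes lost.

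Cdkn1a stood furthest apart. It was -1.81 to -1.07 in control lungs and -3.01 to -2.62 in control livers, with every lung above every liver. The lung was higher by 1.45 ± 0.11 (SE), or 2.73-fold (limma, adjusted p = 2.4e-09). Cy5 alone gave 1.27 and the reference -0.13. Within the 12 mice that gave both tissues the lung exceeded the liver by 1.20 to 1.73 in 12 of 12.

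Xpa was the repair gene with the largest tissue difference, in the opposite direction. It was -0.34 to 0.01 in control lungs and 0.58 to 1.03 in 7 control livers. The liver was higher by 2.01-fold, the lung minus liver difference being -1.01 ± 0.08 (SE; limma, adjusted p = 9.5e-09). Cy5 alone gave -0.96 and the reference 0.07, and all 9 mice with both values were lower in lung.

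The other 2 repair genes were higher in lung. Xrcc1 was -0.78 to -0.49 in control lungs and -1.25 to -1.03 in control livers, a difference of 0.47 ± 0.06 (SE; limma, adjusted p = 1.8e-06). Cy5 alone gave 0.76 and the reference 0.32. Ogg1 differed by 0.36 and 0.30 at its 2 probes (limma, adjusted p = 0.00010 and 0.0020), but at A_51_P489903 Cy5 alone gave -0.17 where the reference gave -0.45, so its direction depended on the reference. At A_52_P567905 Cy5 gave 0.52 and the reference 0.20. The calls of both Ogg1 probes were also lost with normexp fitted on all spots (limma, adjusted p = 0.37 and 0.18).

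Ccng1 gave opposite answers at its 2 probes. At the coding probe it was lower in lung, with -1.56 to -1.28 in control lungs and -0.43 to -0.10 in control livers. At A_52_P612803 it was higher in lung, with -0.66 to -0.33 in control lungs and -1.46 to -1.17 in control livers. The differences were -1.17 ± 0.06 and 0.86 ± 0.06 (SE; limma, adjusted p = 1.7e-11 and 8.0e-10), Cy5 alone gave -1.11 and 0.56 and the reference 0.07 and -0.29, and each direction held in every mouse with both tissues (11 of 11 and 12 of 12). The gene name alone therefore gives no tissue direction for Ccng1.

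The Mdm2 probes differed as well. The coding probe was -0.64 to -0.42 in control lungs and -0.68 to -0.34 in control livers, a difference of -0.02 with an interval from -0.14 to 0.11. A_52_P469842 was -0.92 to -0.44 in control lungs and -1.25 to -1.04 in control livers, a difference of 0.49 ± 0.07 (SE; limma, adjusted p = 7.5e-06). Cy5 alone gave 0.99 and the reference 0.50. Gadd45a was lower in lung by 0.28 (limma, adjusted p = 0.013) with overlapping groups, and Cy5 alone gave -0.29 and the reference 0.04. Bax (-0.10), Bbc3 (-0.33) and Trp53inp1 (0.11 and -0.01) did not pass the test. At Trp53inp1 A_52_P503387, where the ratio gave -0.01, Cy5 alone gave 0.55 (limma, adjusted p = 0.026) and the reference 0.57. Cy5 and the reference gave -0.09 and 0.05 for Bax, -0.12 and 0.13 for Bbc3, and 0.27 and 0.04 for Trp53inp1 A_51_P175580. Bbc3 was called in the within-mouse fit of the 6 control mice with both tissues (-0.55; limma, adjusted p = 0.015). That fit left out control livers 37 and 45, whose Bbc3 values were -0.01 and -0.55. The set of mice thus changed together with the pairing.

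**Figure D3:**
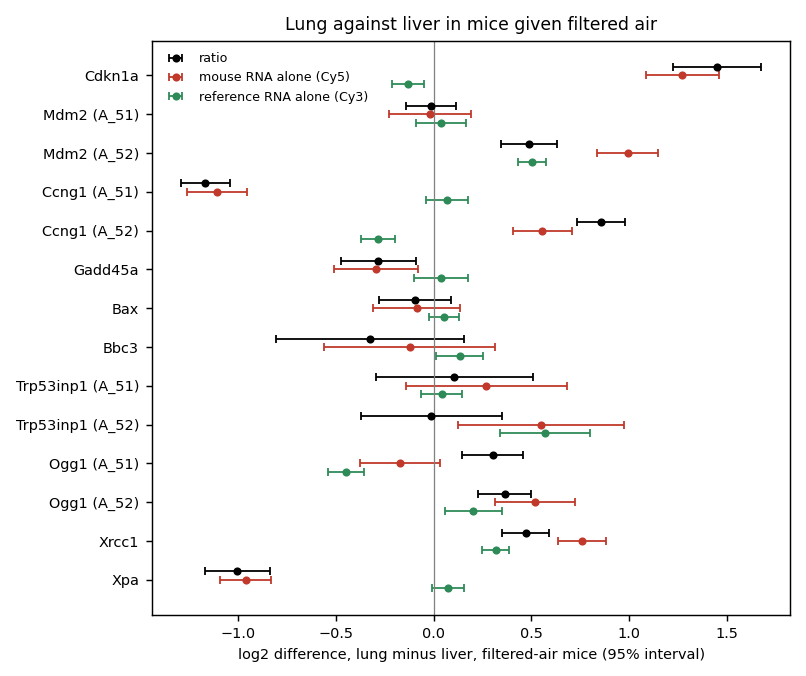
Lung minus liver difference in control mice on the log2 scale for each probe with its 95% interval, from the ratio (black), from the mouse RNA channel alone (red) and from the reference RNA channel alone (green). The 2 Ccng1 probes lie on opposite sides of 0 in the ratio and in the mouse channel. The reference passes the test for 7 probes, from -0.45 to 0.57, namely Mdm2 A_52_P469842, Trp53inp1 A_52_P503387, both Ogg1 probes, Xrcc1, Ccng1 A_52_P612803 and Cdkn1a (-0.13), and not for Xpa (0.07).

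In the fixed lists 48 of the 122 genes were higher in lung and 45 higher in liver, where 29.3% of all probes were higher and 28.5% lower in lung. The list genes were read at their brightest probe, so the shares are not of the same kind, and their difference was not tested. Cy5 and Cy3 values of the list genes are not given, so the part of the reference in their differences is not shown. Of the relatives of the members 11 of 16 were higher and 2 lower in lung, with a median of 0.81, beside -0.02 over all probes. Gadd45b, the growth arrest relative of Gadd45a, was 14.6-fold higher in lung (3.87 on the log2 scale) and Cdkn1c, the relative of Cdkn1a that encodes p57, 2.00 on the log2 scale higher. Bid and Bad, which encode pro-apoptotic Bcl2 relatives, were lower in lung (-1.13 and -0.44). Of the base excision repair genes 16 of 22 were lower and 3 higher in lung, with a median of -0.31. Nudt1, which encodes the enzyme that removes oxidised dGTP from the nucleotide pool, and the uracil glycosylase gene Ung were the lowest in lung (-1.71 and -1.23), and the replication genes Pcna and Lig1 the highest (0.89 and 0.60).

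Of the 30 other p53 targets 18 were higher and 7 lower in lung (median 0.34). Phlda3 and Pmaip1, which encodes the BH3-only protein Noxa, were 6.25-fold and 5.85-fold higher in lung, and Perp, a membrane protein gene, and the kinase gene Plk3 were lower in lung (-2.42 and -2.30). Among the p53 regulators 6 of 12 were higher and 1 lower in lung. Trp53 itself differed by 0.20, Usp7, a deubiquitinase gene of the p53 and Mdm2 proteins, by 0.66 and Ccng2 by 0.62, and Cdkn2a by -0.55. Of the nucleotide excision repair genes 9 of 25 were higher and 10 lower in lung, with Ercc1 (0.77) and Cetn2 (0.63) the highest and Rad23b (-0.80) and Gtf2h4 (-0.79) the lowest. Of the break and mismatch repair genes 4 of 20 were higher and 9 lower, among them Pms2 (0.63) and Xrcc5 (-0.95).

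Mice of the same group differed from each other far more in some of the genes than in others. In the liver Bbc3 ranged from -0.34 to 1.1 in exposed mice (SD 0.51, n = 7) and from -0.55 to 1.25 in control mice (SD 0.61, n = 8), wider than 99% of all probes in each group, where the median probe had an SD of 0.12. In the lung the same probe had an SD of 0.11 and 0.16. Trp53inp1 A_52_P503387 ranged from 0.59 to 1.5 in exposed and from 0.70 to 2.03 in control livers. Gadd45a ranged from -1.53 to -0.62 in exposed livers but only from -1.62 to -1.31 in exposed lungs. In the lung Cdkn1a had the widest scatter of the 10 genes, with an SD of 0.23 in exposed and 0.30 in control mice.

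The spread was set beside a clock gene. Nr1d2 encodes a repressor of the circadian clock (Rev-erb beta), whose RNA rises and falls over the day, and it was chosen for the comparison after the values were seen. It ranged from -0.21 to 1.80 over the 13 lungs and from 0.31 to 2.12 over the 15 livers, with exposed and control mice mixed (means 1.07 and 1.05 in lung, 1.47 and 1.43 in liver). Correlations of the 14 probes with Nr1d2 in the 2 tissues gave 28 relations, all between values that share an array and its normalization. After Benjamini-Hochberg adjustment of the permutation p over the 28, 2 relations of Pearson's r passed 0.05 in the lung and 5 in the liver. These p-values do not cover the choice of Nr1d2 among clock genes, and they exchange mice freely between hybridization blocks. When mice were exchanged only within blocks (exact permutation of the block-centred r), 1 of the 28 relations had an unadjusted p under 0.05 and 0 passed the adjustment.

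Cdkn1a was lower where Nr1d2 was higher in both tissues. Because 12 mice gave both tissues, the lung and liver relations are not independent. In the liver r was -0.84 and Spearman's rho -0.80 (n = 15, permutation p = 5.0e-05 and 0.00060, adjusted p = 0.0014 and 0.012), and r was -0.69 without the 2 mice farthest from the median of Nr1d2. It was -0.86 within the exposed and -0.89 within the control livers. In the lung r was -0.74 and rho -0.64 (n = 13, permutation p = 0.0036 and 0.022, adjusted p = 0.020 and 0.10), and -0.61 without the 2 farthest mice.

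Bbc3 in the liver gave an r of -0.75 and a rho of -0.79 (n = 15, permutation p = 0.0015 and 0.00088, adjusted p = 0.010 and 0.012), and -0.86 without the 2 farthest mice. The coding Ccng1 probe in the liver went the other way, with r 0.76 and rho 0.74 (n = 15, permutation p = 0.0013 and 0.0028, adjusted p = 0.010 and 0.026), and 0.73 without the 2 farthest. Trp53inp1 in the liver gave -0.63 at A_52_P503387 and -0.88 at A_51_P175580 (permutation with n = 15 and 9, adjusted p of r = 0.045 and 0.010), and Xpa in the lung 0.75 (permutation with n = 12, adjusted p = 0.023), but their rho did not pass (permutation, adjusted p = 0.091, 0.059 and 0.17). Without the 2 farthest mice these 3 were -0.65, -0.69 and 0.57.

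Nr1d2 also followed the hybridization blocks. It was 0.31 to 1.02 in liver block 1, 0.83 to 1.47 in block 2, 1.53 to 2.12 in block 3 and 1.92 to 2.05 in block 4, and the lung blocks were ordered alike (-0.21 to 0.61 in block 1 and 1.67 to 1.80 in block 4). A block holds only 2 to 4 arrays, so no relation was computed in a single block. With each block's mean subtracted, r was -0.76 for Cdkn1a and -0.58 for Bbc3 in the liver and -0.54 for Cdkn1a in the lung. The exact permutation p within blocks was 0.021, 0.053 and 0.12 for these 3 (adjusted p = 0.59, 0.75 and 0.87). The block-centred r was -0.25 for the coding Ccng1 probe, whose relation with Nr1d2 turned its sign. It was -0.22 and -0.12 for the 2 Trp53inp1 probes in the liver and 0.33 for Xpa in the lung. For none of the 7 relations did the block-centred value pass the adjustment. Blocks of 2 to 4 arrays give that test little power, so not passing does not show that a relation is absent within blocks. That test was within blocks only. Whether the members go with Nr1d2 or with the block across blocks was not tested.

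**Figure D4:**
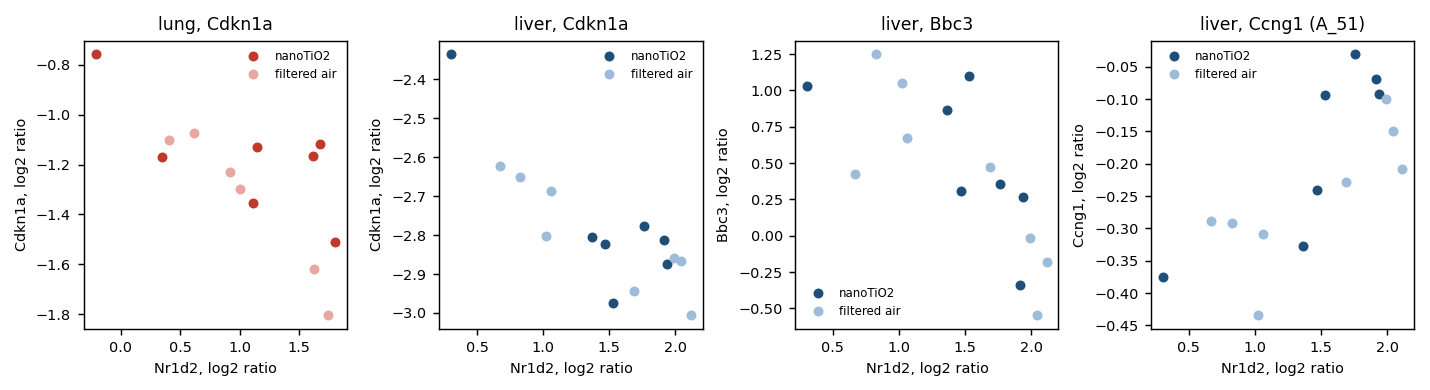
Log2 ratio of Cdkn1a in lung and liver, and of Bbc3 and Ccng1 (A_51_P161612) in liver, against the log2 ratio of Nr1d2 in the same array, with 1 point per mouse and darker points for exposed mice. Cdkn1a and Bbc3 fall and Ccng1 rises along Nr1d2, and exposed and control points are mixed along it.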

How the data were processed

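Per the labels, 28 arrays held the RNA of single mice (7 exposed and 6 control lungs, 7 exposed and 8 control livers). The authors deposited scanner output, in which spot signals and backgrounds are intensity values without normalization (Feature Extraction 9.5.3.1 for lung and 10.1.1.1 for liver), and a table of log2 ratios made by LOWESS. That table correlated with ratios computed here without background correction at 0.993 to 0.997 per array and was used as an alternative. The analysis used median spot intensities, with normexp correction (offset 50) fitted without spots marked as outliers (2.46% to 4.72% of spots per array), loess within each array, and averaging of the spots of a probe. Groups were compared with lmFit and eBayes of limma 3.58.1 in R 4.3.3, with Benjamini-Hochberg adjustment over all probes and a threshold of 0.05, in place of the permutation-based MAANOVA of the methods. The fits were tested on simulated data.

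The 10 genes and the lists were chosen with earlier results of these data known. Named genes were the members, list genes called in an exposure comparison (or the 3 lowest p) and the 2 highest and 2 lowest called genes per list between tissues, some of which are not reported here. A list gene was read at its brightest probe. The pairing of lung and liver rests on the mouse numbers and the methods, and deviations of the 2 tissues of a mouse from their group means correlated at -0.07 to 0.21 over all probes (12 mice, 4 above 0.1). Each array is 1 mouse, so errors include animal and technical spread, and the number of arrays limits the precision. The miRNA arrays of the series were not used here. Their titles list mice 12, 20 and 23 as controls, whereas the mRNA titles list these numbers as exposed, and the mRNA titles were followed.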

Additional observations from a re-analysis of the deposited data

Results flagged for a closer look

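Cdkn1a in the liver of exposed mouse 1 had a log2 ratio of -2.33, and the nearest of the other 6 exposed livers had -2.78. Its gap to the others was large for a group of 7 mice. This was the only such value among 56 sets of 1 probe in 1 group. Chance alone flags about 1 in 20 sets, so 1 in 56 is not more than chance gives. The same mouse also had the highest Cdkn1a of all lungs (-0.76) and the lowest Nr1d2 in both tissues (-0.21 in lung and 0.31 in liver). Without it the liver exposure difference of Cdkn1a was -0.04 in place of 0.03, and neither passed the test.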

How the results depend on the processing

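No member probe was called for exposure in lung or liver, or for the difference between the tissues, under any alternative, including leaving out each array in turn. Over the 4 comparisons the member values were recomputed 1484 times. Of these, 114 had the other sign, which in 2 cases involved a value that passed the test: with Cy5 alone, Ogg1 A_51_P489903 was -0.17 (reported as 0.30) and Trp53inp1 A_52_P503387 0.55 (reported as -0.01) between the tissues. In 11 further recomputations a tissue call was gained or lost. Member probes called between the tissues fell from 9 to 4 with median centering in place of loess, and were 9 to 10 when 1 array was left out, Trp53inp1 A_51_P175580 being gained without control liver 24 (0.33; limma, adjusted p = 0.050). The count of all probes called in the lung was 133 with the hybridization block as a random block, 14 with normexp fitted on all spots, 4 with median centering and 64 to 81 when 1 array was left out. For the difference between the tissues' exposure effects it was 34 with the scanner software's processed signals, 12 with median centering, 6 with normexp on all spots and 46 to 65 when 1 array was left out. In the liver it was 0 under every alternative. Between the tissues it was 22848 to 23814 when 1 array was left out. With scanner-processed signals the median of all probes between the tissues was -0.11, beside -0.02 as reported. For pairing, the mouse as a random replicate block gave 24052 probes called between the tissues and 64 for the difference of exposure effects, and within-mouse differences gave 22301 and 49. The pairing changed no member call other than that of Bbc3, in the within-mouse fit that also left out control livers 37 and 45. The Gdf15 call in lung was also lost with Cy5 alone, median centering, normexp on all spots and scanner-processed signals. The cause of these changes was not tested.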
